A study of Homo sapiens with 14 samples.

Results

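The respiratory chain genes described here are 102 protein-coding genes with symbols used for subunits of complexes I to IV and of the ATP synthase, of 58051 genes in the table. They were chosen by gene symbol and not by any measured value. Subunits with other symbols are left out, and the joined genes NDUFC2-KCTD14 and ATP5MF-PTCD1 are counted. The numbers per complex are therefore not full subunit counts. The 13 mitochondrially encoded members carry the prefixes MT-ND, MT-CO, MT-CYB and MT-ATP. The 89 nuclear-encoded members carry symbols starting with NDUFA, NDUFB, NDUFC, NDUFS, NDUFV, UQCR, COX4I, COX5, COX6, COX7, COX8, ATP5F, ATP5M or ATP5P, or are SDHA to SDHD, with the NDUFAF assembly factors left out. By complex, the nuclear members number 38 for complex I, 4 for complex II, 9 for complex III, 19 for complex IV (NDUFA4 and NDUFA4L2 counted there) and 19 for the ATP synthase. The mitochondrial members number 7 for complex I, 1 for complex III, 3 for complex IV and 2 for the ATP synthase.

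RNA was sequenced from cultured progenitors of the medial ganglionic eminence (MGE) type, a ventral forebrain fate, derived from H9, a line of human embryonic stem cells, and collected at day 25. Cells of the inducible CTNNB1 overexpression line that received doxycycline (Dox) at 0.1 µg/mL from day 17 to day 25 form the group OE with Dox (n = 3), and the same line without the drug forms OE without Dox (n = 3). The other groups are CTNNB1 knockout (KO, n = 5) and wild type (WT, n = 3), both without Dox. All 4 groups went through the same induction, with SB431542 at 2 µM and LDN193189 at 200 nM until day 6 and SHH at 250 ng/mL with purmorphamine at 0.3 µM from day 10 to day 17. Because no WT or KO library received Dox, the drug and the transgene cannot be told apart. The labels name neither the form of CTNNB1 expressed, nor how the knockout was made, nor whether KO and OE are single clones, and they do not say that replicates are separate differentiations. The p-values therefore measure the spread between these libraries, which may be technical.

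Complexes I, III and IV pass electrons from NADH and ubiquinol to oxygen and pump protons across the inner mitochondrial membrane, complex II feeds electrons from succinate, and the ATP synthase uses the proton gradient to make ATP. Complex II is built from nuclear-encoded proteins alone, while the other complexes combine subunits of both genomes. The mitochondrial genome is copied into long transcripts from both strands, which are cut, mostly at tRNAs, into shorter RNAs. Members that overlap, described below, have no tRNA between them. Doxycycline is a tetracycline, and drugs of this class can inhibit translation by mitochondrial ribosomes, so transcript levels of the mitochondrial and nuclear subunits were compared over the 4 groups.

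Values are normalized counts: gene read counts that the authors divided by 1 size factor per library. Reads in genes numbered from 5233270 to 5639725 per library, and a count of 0 allows up to 3 reads, a normalized count between 2.60 and 2.84 per library. A gene was tested when its normalized count reached 10 in at least 3 libraries, which 17102 genes did. It was called when limma, fitted to log2(value + 1) over all 14 libraries, gave a two-sided Benjamini-Hochberg adjusted p under 0.05 over those genes. All 13 mitochondrial and 79 of the 89 nuclear members were tested, and the 10 that were not are given below with the isoform pairs. CTNNB1 itself lay between 23860 and 31290 in OE with Dox, 3084 and 3633 in OE without Dox, 2090 and 2779 in KO and 3248 and 4393 in WT. Of the defining markers of the labelled cell type, NKX2-1 (at least 274) and SOX2 (at least 2281) were present in all libraries, and LHX6 was between 0.922 and 9.23 in OE with Dox, against at least 79.5 elsewhere. Replicate 3 of each OE group stood apart from the other libraries in the small mitochondrial rRNA, MT-RNR1, with 712.5 in OE with Dox and 705 in OE without Dox, against 960 to 2494 in the remaining 12 libraries. The 960 is WT replicate 3. Summed mitochondrial tRNA genes were lowest in replicate 3 of every group, at 123.5 in OE with Dox, 127.8 in OE without Dox, 189.9 in KO and 191.4 in WT.

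The mitochondrial genome is compact, and neighbouring members share bases, which limits how counts can be assigned to them. MT-ATP8 and MT-ATP6, both subunits of the ATP synthase, lie on the plus strand of the mitochondrial chromosome, at 8366 to 8572 and 8527 to 9207 in hg38, and share 46 bases. MT-ND4L and MT-ND4, both of complex I, share 7 bases. The stretches with 10 flanking bases on each side are shown here, with the shared bases in capitals, because MT-ATP8 and MT-ATP6 have the largest mitochondrial folds with Dox and are not independent measurements. The hg38 positions are chrM:8517-8582 and chrM:10750-10776, plus strand.
MT-ATP8 and MT-ATP6 overlap: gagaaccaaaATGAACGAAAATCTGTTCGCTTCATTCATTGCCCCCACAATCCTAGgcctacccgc
MT-ND4L and MT-ND4 overlap: acctactccaATGCTAAaactaatcgt
Bases shared with any neighbour make up 22.2% of MT-ATP8 but 6.90% of MT-ATP6, which also shares 1 base with MT-CO3, and 2.36% of MT-ND4L but 0.508% of MT-ND4. These genes have a single exon and no intron.

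Per kilobase of exon, every mitochondrial member was above every tested nuclear one. Their mean normalized count per kb over all libraries ran from 4511 for MT-ND5 to 16800 for MT-CO3, with a median of 7401. Among the tested nuclear members it ran from 3.75 for NDUFA4L2 to 1499 for ATP5F1B, the catalytic beta subunit of the ATP synthase, with a median of 112. NDUFS5, a small accessory subunit of complex I, followed at 1040. Exon lengths are unions over all GENCODE transcripts, so that a nuclear gene with long alternative transcripts is understated per kb.

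Summed over the 13 mitochondrial members, the normalized count was 133807, 113595 and 115963 in OE with Dox, against 96996, 89561 and 92842 in OE without Dox. KO libraries held 91208, 96755, 108213, 101859 and 92884, and WT libraries 94671, 122508 and 99940. The OE with Dox libraries lay above all OE without Dox and all KO libraries, and overlapped the WT range. As a share of reads in genes, the 13 members took 2.20 to 2.57% in OE with Dox, 1.79 to 1.93% in OE without Dox, 1.79 to 2.19% in KO and 1.82 to 2.44% in WT. The 89 nuclear members summed to 38193, 32518 and 34276 in OE with Dox, against 29430, 32055 and 29520 in OE without Dox. Their sums were between 29603 and 35021 in KO and between 31317 and 34726 in WT. The mitochondrial sum was 3.50, 3.49 and 3.38 times the nuclear sum in OE with Dox, against 3.30, 2.79 and 3.15 times in OE without Dox, with no overlap between these groups. In KO this ratio was 2.95 to 3.44, and in WT it was 3.01, 3.91 and 2.88, so that 1 WT library exceeded every other library.

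**Figure D1:**
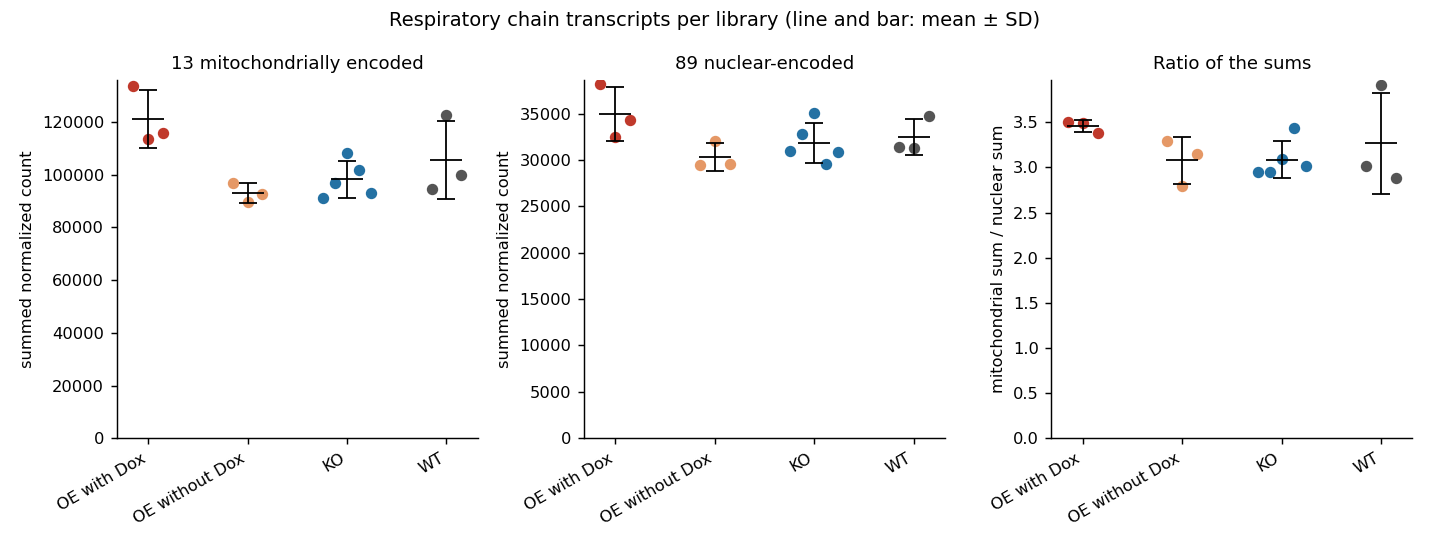
Summed normalized counts of the 13 mitochondrially encoded and the 89 nuclear-encoded members, and the ratio of these sums, in each of the 14 libraries by group. Points are libraries and bars the mean ± SD; the OE with Dox libraries sit at 113595 to 133807 in the mitochondrial panel, above the 89561 to 96996 of OE without Dox, while the single WT library at 122508 lies among them.

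With Dox, most subunit transcripts of both genomes had higher levels than in OE without Dox, and some of them passed the test. Of the 13 mitochondrial members, 5 were called higher and 0 lower, which is 38.5%, beside 12.8% called higher and 12.9% called lower among all 17102 tested genes. Of the 79 tested nuclear members, 10 were called higher and 0 lower, which is 12.7% and so near the 12.8% of all genes. The median log2 fold was 0.28 for the mitochondrial and 0.28 for the nuclear members, against 0.02 for all tested genes, and the mitochondrial median exceeded the nuclear one by 0.01. This difference shifted when single libraries were left out: in each of the 6 fits without 1 library the mitochondrial median was higher, by 0.04 to 0.27. These fits share most of their libraries and are not independent. Between replicates of a group, the difference between the mitochondrial and nuclear medians of a library had an SD of 0.17. Whether the genomes differed in this contrast was not tested. The mitochondrial median reached 0.49, against a nuclear 0.23, without OE without Dox replicate 1, and 0.46, against 0.25, without OE with Dox replicate 3. Positive folds were found in 12 of 13 mitochondrial and 70 of 79 nuclear members, beside 51.7% of all tested genes. Groups without overlap, OE with Dox above OE without Dox, were found in 7 of 13 mitochondrial and 26 of 79 nuclear members, beside 21.2% of all tested genes, and 3 nuclear members had the opposite order, beside 19.5%. In the mitochondrial members edgeR called 5 and DESeq2 5, and in the nuclear members edgeR called 10 and DESeq2 12.

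Among the mitochondrial members the called rises were in the ATP synthase, complex III and complex IV. MT-ATP8 had normalized counts of 2940, 1919 and 2255 in OE with Dox, against 1403, 1358 and 1356 in OE without Dox. Its log2 fold was 0.77 (SE 0.19, limma adjusted p = 0.0055). MT-ATP6, which forms part of the proton channel, had 9344, 6726 and 9308 in OE with Dox, against 5237, 4583 and 5980 in OE without Dox (log2 fold 0.68, SE 0.18, limma adjusted p = 0.011). In both genes the lowest OE with Dox library exceeded the highest OE without Dox library. In KO, MT-ATP8 ran from 1253 to 2231 and MT-ATP6 from 4698 to 8017, and in WT they ran from 1607 to 2142 and from 5777 to 8056, so both ranges reach into that of OE with Dox.

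MT-CYB encodes cytochrome b, the mitochondrial subunit of complex III (chrM:14747-15887, plus strand). It had 11930, 10580 and 13240 in OE with Dox, against 8191, 6555 and 9172 in OE without Dox. KO libraries held 6475, 8039, 8035, 7446 and 7508, and WT libraries 7790, 7000 and 6266. MT-CYB was the mitochondrial member that separated OE with Dox from all 11 other libraries: its lowest library there exceeded the highest elsewhere. Against OE without Dox its log2 fold was 0.59 (SE 0.14, limma adjusted p = 0.0032), a 1.5-fold level. MT-CO2, the copper-binding subunit of complex IV that receives electrons from cytochrome c, had 11690, 8683 and 10180 in OE with Dox, against 6204, 6043 and 7241 in OE without Dox (log2 fold 0.64, SE 0.15, limma adjusted p = 0.0028). MT-CO3, another core subunit of complex IV, had 18030, 15260 and 16890 against 11650, 11620 and 12920 in the same order of groups (log2 fold 0.47, SE 0.14, limma adjusted p = 0.018). For MT-CO1, the catalytic subunit with the haem groups that reduce oxygen, OE with Dox libraries at 32910, 26790 and 27200 also lay above OE without Dox libraries at 23730, 23570 and 23840. Its log2 fold of 0.28 (SE 0.12) did not pass (limma adjusted p = 0.10).

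**Figure D2:**
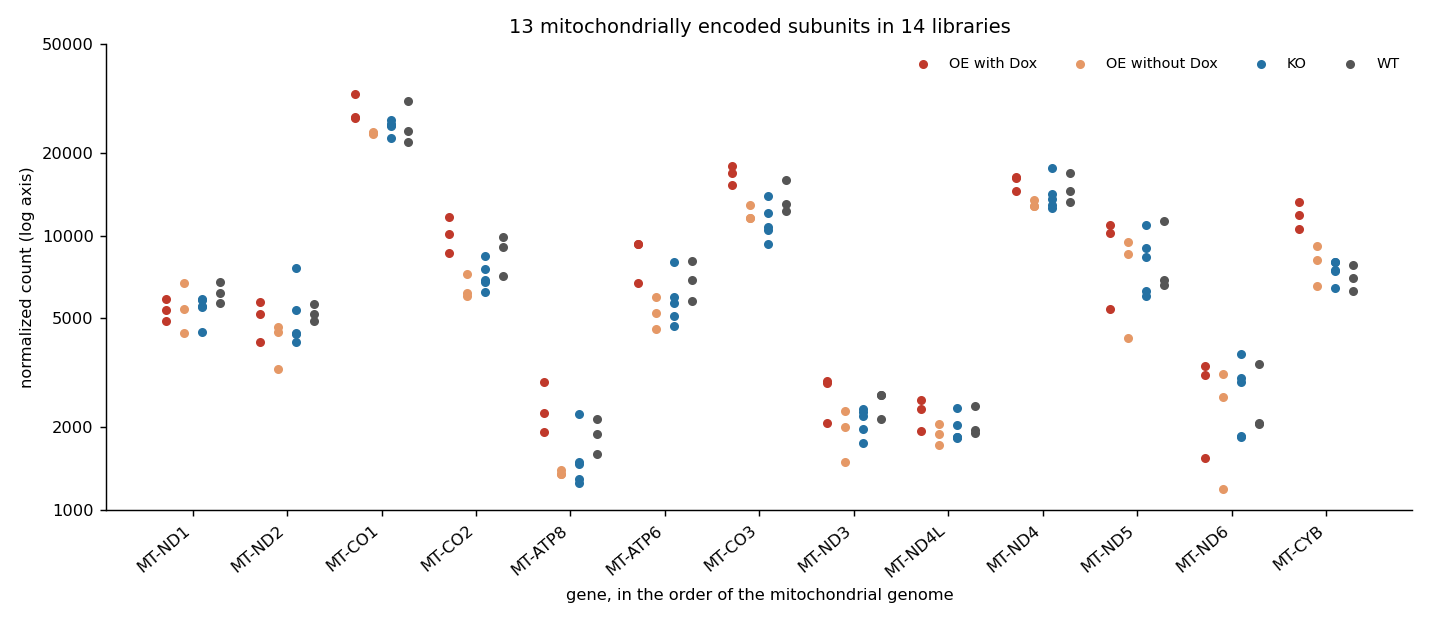
Normalized counts of the 13 mitochondrially encoded members in 14 libraries on a log axis, in genome order, with 1 point per library and the 4 groups side by side. The OE with Dox points lie above all OE without Dox points for MT-CO1, MT-CO2, MT-ATP8, MT-ATP6, MT-CO3, MT-ND4 and MT-CYB, and MT-ND5 and MT-ND6 spread most within groups.

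None of the 7 mitochondrial subunits of complex I was called (0 by limma, edgeR and DESeq2, 1 at an unadjusted p under 0.05, which 35.7% of all tested genes had), and their median log2 fold was 0.27. MT-ND3 had 2899, 2076 and 2952 in OE with Dox, against 2001, 1501 and 2299 in OE without Dox, with a log2 fold of 0.45 (SE 0.17, limma adjusted p = 0.057). MT-ND4 had 16350, 16180 and 14530 against 12850, 13470 and 12800 in those groups, with a log2 fold of 0.27 (SE 0.13, limma adjusted p = 0.14). MT-ND2 and MT-ND4L had log2 folds of 0.28 and 0.25, with limma adjusted p of 0.34 and 0.21. MT-ND1, the first gene after the rRNAs on the heavy-strand transcript, was the single mitochondrial member without a positive fold: 5868, 4869 and 5348 in OE with Dox, against 6718, 4421 and 5424 in OE without Dox (log2 fold -0.03, SE 0.15, limma adjusted p = 0.92). The rRNA genes upstream of it, MT-RNR1 and MT-RNR2, had log2 folds of -0.12 and -0.20, with limma adjusted p of 0.88 and 0.61. Whether complex I transcripts responded differently from the other mitochondrial ones was not tested.

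MT-ND5 and MT-ND6, neighbouring complex I genes on opposite strands, differed more between replicates than between groups. MT-ND5 had 10250, 10960 and 5408 in OE with Dox, against 9509, 8544 and 4233 in OE without Dox. Its KO libraries held 9010, 6291, 6036, 10970 and 8387, and its WT libraries 6626, 11320 and 6906. MT-ND6, the one subunit gene on the opposite strand, followed it: its count was between 0.282 and 0.349 of that of MT-ND5 in all 14 libraries. Replicate 3 of each OE group had the lowest counts of both genes, and the lowest MT-RNR1. The log2 folds of MT-ND5 and MT-ND6 with Dox, 0.27 and 0.25, had SEs of 0.35 and 0.40, the largest of the mitochondrial members. The strand setting of the counting is not given, so reads of MT-ND6 and reads of the opposite strand of the same stretch cannot be told apart.

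**Figure D3:**
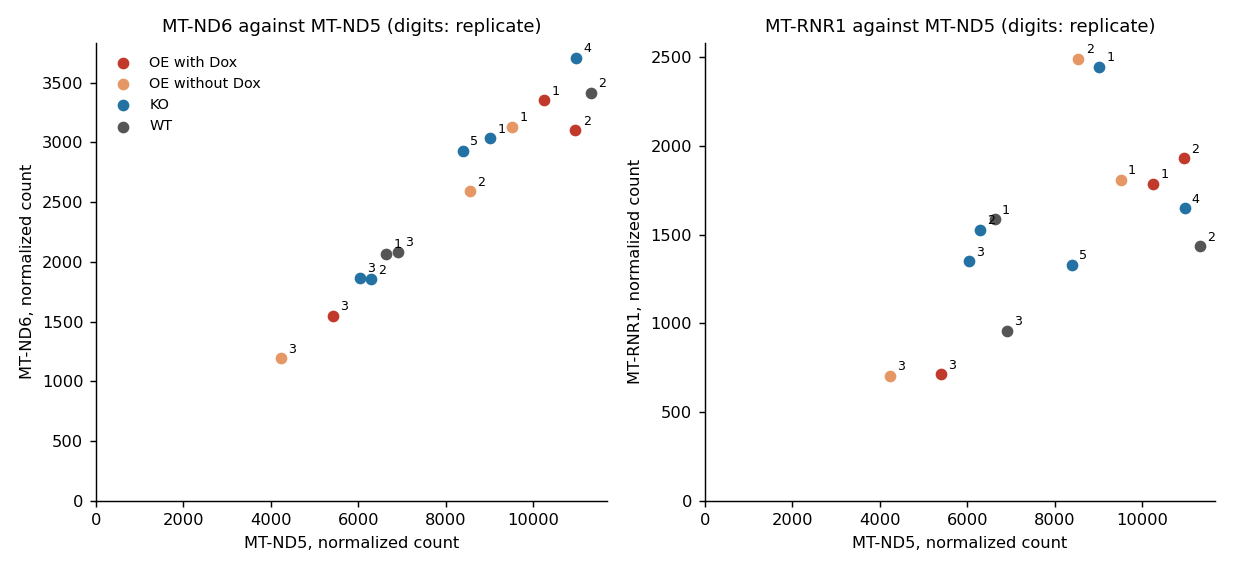
MT-ND6 (left) and MT-RNR1 (right) against MT-ND5, as normalized counts in the 14 libraries, coloured by group and numbered by replicate. The libraries numbered 3 of OE with Dox and OE without Dox sit at the low end of all 3 genes, and MT-ND6 stays between 0.282 and 0.349 of MT-ND5.

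Same-numbered libraries of the OE groups deviated together from their group means (correlations of 0.22, 0.25 and 0.40), so each OE with Dox library can be set beside the OE without Dox library of its number. In these 3 pairs, 12 of 13 mitochondrial members (92.3%) and 41 of 79 nuclear members (51.9%) were higher with Dox every time, beside 32.5% of all tested genes. Lower in every pair were 0 mitochondrial and 4 nuclear members (5.06%), beside 29.5% of all genes. MT-ND5, whose group means differed by less than the spread, had log2 ratios of 0.11, 0.36 and 0.35 within the pairs, and MT-CYB had 0.54, 0.69 and 0.53. Log2 ratios of MT-ND1 within the pairs were -0.20, 0.14 and -0.02, so that it moved in no common direction. With the replicate number as a block, limma called 14 nuclear and 6 mitochondrial members higher, the added ones being ATP5MC1, ATP5MK, NDUFA3, UQCRQ and MT-ND3. Calls also rose over all 17102 tested genes, with 2467 called higher with the block, against 2189 without it.

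Of the 36 tested nuclear subunits of complex I, 4 were called higher and 0 lower, with a median log2 fold of 0.27. The 4 are 11.1%, beside 12.8% of all genes called higher. NDUFB10, an accessory subunit of the membrane arm (chromosome 16, 1959538 to 1961975, plus strand), had 356, 336 and 349 in OE with Dox, against 231, 242 and 249 in OE without Dox. KO libraries held 239.8 to 274 and WT libraries 252 to 309, so OE with Dox exceeded every other library. Its log2 fold against OE without Dox was 0.53 (SE 0.13, limma adjusted p = 0.0044). The other called members, all accessory subunits, were NDUFB6 (log2 fold 0.54, SE 0.19, limma adjusted p = 0.042), NDUFB5 (log2 fold 0.48, SE 0.15, adjusted p = 0.028) and NDUFA1 (log2 fold 0.47, SE 0.17, adjusted p = 0.048). Among the negative folds, NDUFV2, a core iron-sulphur subunit, had 12, 12.1 and 7.37 in OE with Dox, against 20.1, 21.3 and 17.2 in OE without Dox (log2 fold -0.86, SE 0.34, limma adjusted p = 0.074). Those are low counts for a core subunit. Of its exon bases, 28.4% are shared with other annotated genes, and whether this lowered its counts was not tested.

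In complex II, SDHB, the iron-sulphur subunit (chromosome 1, 17018664 to 17054032, minus strand), had 240, 178 and 219 in OE with Dox, against 143, 133 and 148 in OE without Dox. Its log2 fold of 0.57 (SE 0.17, limma adjusted p = 0.020) was the largest of the called nuclear members. The flavoprotein SDHA had a log2 fold of 0.01, and the membrane anchors SDHC and SDHD had -0.31 and 0.21, with limma adjusted p of 0.98, 0.19 and 0.44. Thus 1 of the 4 subunits of this complex (25.0%) was called higher, beside 12.8% of all tested genes. In complex III, 0 of 9 nuclear members were called (limma, edgeR and DESeq2 alike, 1 at an unadjusted p under 0.05), with a median log2 fold of 0.13. Of all tested genes 12.8% were called higher, 12.9% were called lower and 35.7% had such an unadjusted p. UQCRQ had the largest fold there, 0.50 (SE 0.21, limma adjusted p = 0.085). UQCRH and its near-identical copy UQCRHL had log2 folds of 0.12 and 0.02, and reads may be split between them.

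In complex IV, 3 of 13 tested nuclear members (23.1%) were called higher and 0 lower, beside 12.8% of all genes called higher, with a median log2 fold of 0.28. COX6B1, which helps to join the enzyme into dimers, had 637, 588 and 582.5 in OE with Dox, against 403, 495 and 424 in OE without Dox (log2 fold 0.45, SE 0.14, limma adjusted p = 0.019). COX5B had 524, 433 and 417 against 310, 355 and 334 in those groups, and COX5A had 319.5, 388.5 and 454 against 247, 299.8 and 297. Their log2 folds were 0.45 and 0.45, with limma adjusted p of 0.030 and 0.033. In KO, COX6B1 ran from 430.5 to 530.0, COX5B from 297 to 420.4 and COX5A from 276 to 329, and in WT they ran from 452.5 to 600.3, from 313 to 369.9 and from 301 to 366. In each of the 3 genes the lowest OE with Dox library lay above the highest OE without Dox library.

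Of the 17 tested nuclear subunits of the ATP synthase, 2 were called higher and 0 lower, with a median log2 fold of 0.30. The 2 are 11.8%, beside 12.8% of all genes called higher. ATP5MC3 is 1 of 3 genes for the same mature subunit c, the rotor ring of the enzyme (chromosome 2, 175176258 to 175181710, minus strand). It had 998, 829 and 888.5 in OE with Dox, against 627, 679 and 659 in OE without Dox (log2 fold 0.46, SE 0.13, limma adjusted p = 0.012). ATP5F1C, the gamma subunit of the central stalk, had 839, 690.5 and 728 against 544, 575 and 515 (log2 fold 0.46, SE 0.14, limma adjusted p = 0.019). ATP5MC3 ran from 569 to 779 in KO and 778 to 875 in WT, and ATP5F1C from 550 to 782 in KO and 582 to 603 in WT, so ATP5MC3 in WT and ATP5F1C in KO reached into the range of OE with Dox. The most abundant members by count, ATP5F1B and ATP5F1A, had log2 folds of 0.22 and 0.07, with limma adjusted p of 0.15 and 0.76.

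**Figure D4:**
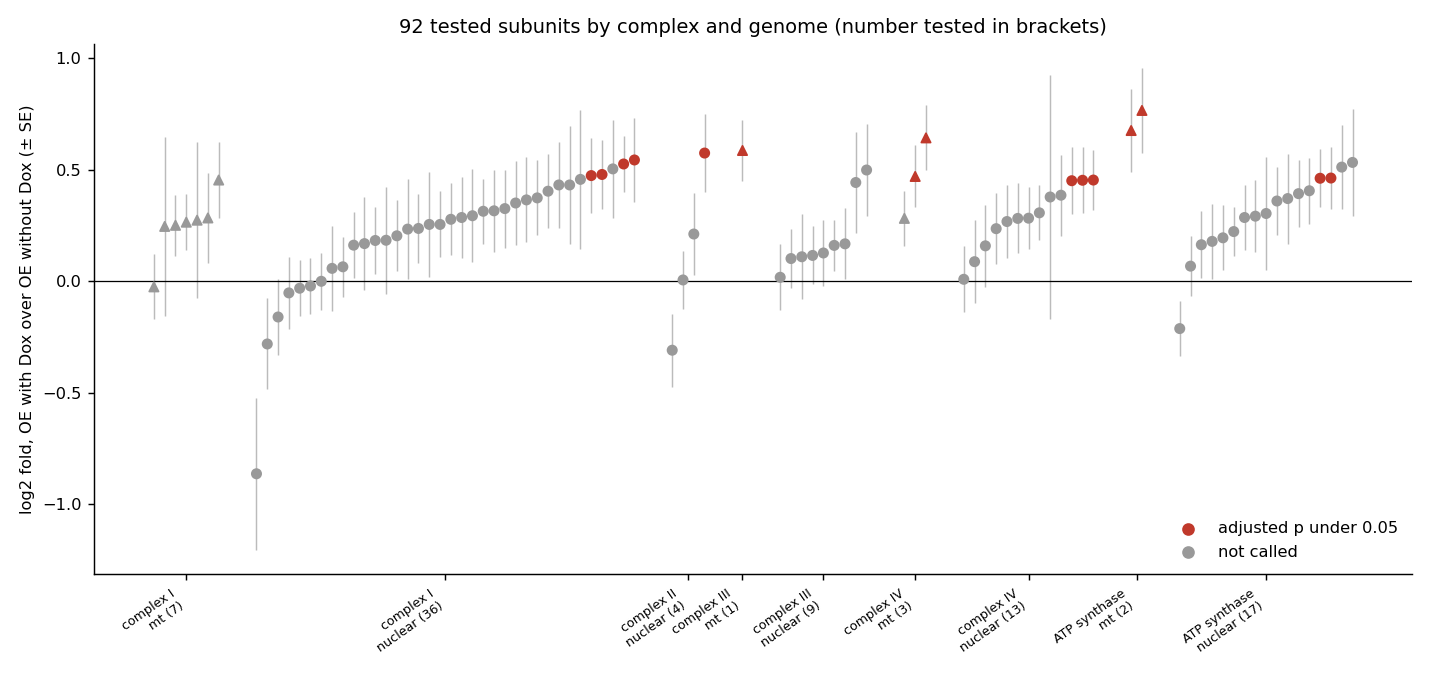
Log2 folds of OE with Dox over OE without Dox for the 92 tested members, sorted within each complex and genome, with bars of ± 1 SE; triangles are mitochondrially encoded, circles nuclear-encoded, and red marks an adjusted p under 0.05. Most points lie above 0, MT-ATP8 reaches 0.77, NDUFV2 lies at -0.86, and no mitochondrial member of complex I and no nuclear member of complex III is red.

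Of the 15 called members, 4 were called in each of the 6 fits that left out 1 library. NDUFB10, MT-CO2, MT-CYB and MT-ATP8 held there with limma adjusted p of at most 0.023, 0.019, 0.024 and 0.037. The count of nuclear members called higher fell to 1 without OE without Dox replicate 1, 5 without its replicate 3, 3 without OE with Dox replicate 1 and 6 without its replicate 3. Calls fell over all tested genes too, from 2189 called higher to 1651, 1811, 1765 and 1527 in these fits, in that order. The mitochondrial count fell to 3 without OE without Dox replicate 2 (1921 of all tested genes called higher) and to 3 without OE with Dox replicate 3. Without replicate 3 of either OE group, the libraries with low MT-RNR1, 4 mitochondrial and 1 nuclear member were called higher, and the median log2 folds were 0.35 and 0.28. In that fit 1207 of all 16766 tested genes were called higher.

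Markers of several cell types moved in the same contrast. Of 10 neuronal marker genes, 1 was called higher and 9 lower, with summed normalized counts of 5867 to 6458 in OE with Dox, against 17611 to 19598 in OE without Dox. Of 10 MGE progenitor markers 0 were called higher and 8 lower, with sums of 5656 to 7567 in OE with Dox, against 16453 to 22377 in OE without Dox. Of 8 mesenchyme markers 6 were called higher and 0 lower, with sums of 1666 to 6783 in OE with Dox, against 226 to 1715 in OE without Dox, and none of the 8 was at 0 in either group. Of 8 cycling-cell markers 0 were called higher and 3 lower, with sums of 5617 to 9453 in OE with Dox, against 8966 to 11734 in OE without Dox. KO libraries held sums of 17534 to 22027 for neuronal, 18276 to 24397 for MGE, 188 to 332 for mesenchyme and 7754 to 9623 for cycling markers. WT libraries held 9538 to 11179 for neuronal, 13765 to 14154 for MGE, 437 to 1885 for mesenchyme and 9559 to 14093 for cycling markers. Of 5 markers of pluripotent cells 3 were tested (SALL4, LIN28A and DPPA4), with 0 called higher and 2 lower, and POU5F1 and NANOG did not exceed 1.85 in any library. Their sums were 379 to 546 in OE with Dox, 559 to 936 in OE without Dox, 665 to 953 in KO and 1279 to 1527 in WT. Of 8 muscle markers 2 were tested, with 1, ACTC1, called higher and 0 lower, and sums of 37.8 to 179 in OE with Dox, 34.2 to 40.2 in OE without Dox, 26.8 to 45.3 in KO and 35.8 to 65.0 in WT. In these bulk libraries a change in the number of cells of a type and a change in RNA per cell cannot be told apart, and the part of these markers in the respiratory chain results was not tested.

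Several subunits of complex IV have alternative forms that mark tissues, and in these libraries the ubiquitous form held nearly all of the counts. COX4I1 had means of 1192 ± 102 in OE with Dox, 963 ± 91.2 in OE without Dox, 925 ± 47.5 in KO and 1037 ± 134 in WT (SD), while its lung-type counterpart COX4I2 did not exceed 3.72 in any library. COX6A1 averaged 191 ± 7.56, 147 ± 23.0, 169 ± 35.3 and 153 ± 8.82 over the same order of groups, and the heart and muscle form COX6A2 did not exceed 0.945. COX7A2 averaged 353 ± 55.6, 298 ± 27.7, 332.5 ± 40.7 and 315 ± 41.1, and the muscle form COX7A1 did not exceed 2.83. The testis forms COX6B2 and COX8C reached at most 8.33 and 1.89, against means of at least 441 for COX6B1 and 291 for COX8A in every group. The remaining untested members were COX7B2, ATP5MF-PTCD1, ATP5MGL, NDUFA7 (0 to 9.07, with 32.5% of exon bases shared with other genes) and NDUFC2-KCTD14, a readthrough gene listed at 0 in every library.

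NDUFA4L2, the hypoxia-inducible relative of NDUFA4, was at 14.8, 31.6 and 6.45 in OE with Dox, against 10.97, 16.7 and 7.25 in OE without Dox. Its KO libraries lay between 2.83 and 12.9 and its WT libraries between 3.46 and 8.94, and no comparison called it. Of the subunit c genes, 1 was called between OE with Dox and OE without Dox: ATP5MC3 was called higher, ATP5MC1 had a log2 fold of 0.53 (SE 0.24, limma adjusted p = 0.12), and ATP5MC2 had -0.21 (SE 0.12, limma adjusted p = 0.23). The differences among these folds were not tested.

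The called nuclear members were set beside their promoters, 250 bases before to 50 after the gene start in RefSeq (GRCh38.p14), which were in hand for 70 of the 89 nuclear members. Sequences searched on both strands were the NRF1 core GCATGCGC, the ETS core CCGGAAGT and the YY1 core AAGATGGC, letters bound by regulators known from studies of nuclear respiratory genes. The NRF1 core was in 13 of the 70 (18.6%), beside 4.27% of all 15251 promoters. The ETS core was in 10 (14.3%), beside 6.32%, and the YY1 core in 11 (15.7%), beside 3.99%. Of the 10 nuclear members called higher with Dox, 8 had a window to search, ATP5MC3 and NDUFB5 being without one. Of those 8, SDHB, COX5B and ATP5F1C held such letters, and their windows are printed with those letters in capitals to show where the cores lie. In ATP5F1C the NRF1 core is read on both strands, and these matches overlap. Most of the windows with such letters belong to members that were not called with Dox. The NRF1 core was also in NDUFB4, ATP5ME, NDUFS6, NDUFA8, SDHD, ATP5MC2, COX6A1, NDUFS7, ATP5PF and NDUFA6. UQCRH, NDUFS1 and UQCRQ are among the uncalled members with the ETS core. Whether called members held them more often than the other members was not tested. A match describes the letters in this window and not a bound site. The windows are chr1:17053983-17054282 (minus strand) for SDHB, chr2:97645812-97646111 (plus strand) for COX5B and chr10:7787927-7788226 (plus strand) for ATP5F1C.
SDHB, NRF1 and YY1 cores: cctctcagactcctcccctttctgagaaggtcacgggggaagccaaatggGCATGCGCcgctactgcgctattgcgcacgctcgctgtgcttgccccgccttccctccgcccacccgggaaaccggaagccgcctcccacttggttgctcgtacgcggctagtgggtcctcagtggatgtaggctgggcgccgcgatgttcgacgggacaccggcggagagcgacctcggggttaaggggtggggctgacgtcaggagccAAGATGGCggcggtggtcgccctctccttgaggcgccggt
COX5B, NRF1 core and the ETS core at 2 places: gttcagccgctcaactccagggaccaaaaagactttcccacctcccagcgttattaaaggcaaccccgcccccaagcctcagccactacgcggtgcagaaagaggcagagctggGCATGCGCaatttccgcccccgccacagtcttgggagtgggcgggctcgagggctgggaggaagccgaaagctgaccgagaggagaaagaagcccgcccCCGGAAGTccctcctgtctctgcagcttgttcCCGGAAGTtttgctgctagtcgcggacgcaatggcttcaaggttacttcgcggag
ATP5F1C, NRF1 core: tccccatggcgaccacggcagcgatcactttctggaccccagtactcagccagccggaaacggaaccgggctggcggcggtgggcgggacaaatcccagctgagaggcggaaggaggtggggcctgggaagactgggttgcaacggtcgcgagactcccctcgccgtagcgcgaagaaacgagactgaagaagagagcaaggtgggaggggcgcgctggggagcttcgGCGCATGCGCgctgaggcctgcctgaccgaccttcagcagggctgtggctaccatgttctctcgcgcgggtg
NDUFB10, COX6B1, COX5A, NDUFB6 and NDUFA1, also called, held none of these letters in their windows.

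Between KO and WT a single respiratory chain member was called. Of 79 nuclear members 1 was called higher and 0 lower in KO, beside 6.64% called higher and 7.15% called lower among all tested genes. Of 13 mitochondrial members 0 were called by limma, edgeR or DESeq2, with 1 at an unadjusted p under 0.05, which 25.0% of all tested genes had. The median log2 folds were -0.05 for nuclear and -0.08 for mitochondrial members, against -0.02 for all genes. Positive folds were found in 29 of 79 nuclear and 2 of 13 mitochondrial members, beside 47.8% of all genes. Groups without overlap were found in 1 nuclear member, higher in KO, and in 0 mitochondrial members, beside 8.61% of all genes higher and 9.53% lower in KO. The called gene was ATP5F1E, the epsilon subunit of the ATP synthase (chromosome 20, 59025475 to 59032345, minus strand). It had 432, 499.5, 627, 467 and 438.5 in KO, against 381.5, 349 and 348 in WT, with no overlap and with 23.2% of its exon bases shared with other genes (log2 fold 0.44, SE 0.13, limma adjusted p = 0.031). The call held in 4 of the 8 fits that each left out 1 library, with adjusted p up to 0.11, and was lost without WT replicates 2 or 3 or KO replicates 2 or 3. For the mitochondrial members, MT-CO3 was the one under 0.05 before adjustment, with 9346, 12100, 13960, 10780 and 10490 in KO, against 12260, 15980 and 13080 in WT (log2 fold -0.28, SE 0.12, limma adjusted p = 0.16). Without KO replicate 3, 2 mitochondrial members, MT-CO3 and MT-ATP8, were called lower (limma adjusted p = 0.045 for each). In KO against WT, 8 of 10 neuronal markers were called higher and 0 lower, 4 of 10 MGE markers higher and 1 lower, 3 of 8 mesenchyme markers lower (DCN, TWIST1 and PRRX1 at 0 in at least 1 KO library) 4 of 8 cycling markers lower and 2 of 3 tested pluripotency markers lower, with the sums given above. Their part in these values was not tested.

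No member was called between the uninduced line and WT. In OE without Dox against WT, 0 nuclear and 0 mitochondrial members were called by limma, edgeR or DESeq2, beside 3.43% of all genes called higher and 2.32% called lower. At an unadjusted p under 0.05 there were 2 nuclear and 4 mitochondrial members, beside 18.6% of all genes. Groups without overlap were found in 10 nuclear members, 2 higher and 8 lower in OE without Dox, and in 2 mitochondrial members, both lower (MT-ND2 and MT-ATP8), beside 11.6% of all genes higher and 11.4% lower. Folds leaned below 0: 63 of 79 nuclear members and 12 of 13 mitochondrial members were negative, with medians of -0.12 and -0.20, against -0.03 for all genes, of which 46.7% were positive. The mitochondrial median was -0.09 without WT replicate 2, -0.31 without WT replicate 3, -0.33 without WT replicate 1 and -0.38 without OE without Dox replicate 1, and the nuclear median was -0.04 without WT replicate 3 and -0.08 without OE without Dox replicate 1. MT-CO2 had the smallest p of the mitochondrial members, with 6204, 6043 and 7241 in OE without Dox, against 7149, 9886 and 9103 in WT (log2 fold -0.42, SE 0.15, limma adjusted p = 0.11). It was called without WT replicate 1 (limma adjusted p = 0.044). Of the neuronal markers 5 of 10 and of the MGE markers 3 of 10 were called higher in OE without Dox than in WT, and 0 were called lower in either list, while 1 of 3 tested pluripotency markers was called lower. Their part was not tested. The nuclear members of highest mean, ATP5F1B and ATP5F1A, had log2 folds of -0.10 and 0.03, with limma adjusted p of 0.70 and 0.94. OE without Dox held the lowest of the 4 group means for 10 of 13 mitochondrial and 45 of 79 nuclear members, and OE with Dox the highest for 10 and 58. In KO against OE without Dox, 0 members of either genome were called by limma, edgeR or DESeq2, and 0 had an unadjusted p under 0.05, beside 0.351% of all genes called higher, 1.75% called lower and 8.67% with such a p. There, 59 of 79 nuclear and 10 of 13 mitochondrial folds were positive, beside 50.7% of all genes. Groups without overlap were found in 1 nuclear member, NDUFA9, higher in KO, beside 2.47% of all genes higher and 4.39% lower. The median log2 folds in that comparison were 0.06 for nuclear and 0.14 for mitochondrial members, with ATP5F1B at 0.06 and ATP5F1A at 0.09 (limma adjusted p of 0.97 and 0.96).

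Set against WT, the OE with Dox libraries showed fewer calls than against their own uninduced line. The comparison shares the OE with Dox libraries with the contrast described first, so the folds of these contrasts are not independent. Of 13 mitochondrial members 1 was called higher and 0 lower, and of 79 nuclear members 2 were called higher and 1 lower, beside 10.4% of all genes called higher and 10.1% called lower. The nuclear count of 2 became 5 without WT replicate 3, 3 without OE with Dox replicate 2, and 1 without WT replicate 1 or OE with Dox replicate 1. In these fits 1575, 1144, 1573 and 1397 of all tested genes were called higher, in that order, against 1773 with all libraries. Median log2 folds were 0.11 for mitochondrial and 0.14 for nuclear members, against 0.01 for all genes. The mitochondrial median was 0.32 without WT replicate 2, 0.24 without OE with Dox replicate 2, 0.22 without its replicate 3, 0.06 without WT replicate 1 and 0.05 without OE with Dox replicate 1. The nuclear median was 0.21 without WT replicate 3, 0.06 without WT replicate 1 and 0.07 without OE with Dox replicate 1. Positive folds were found in 11 mitochondrial and 61 nuclear members, beside 50.6% of all genes, and an unadjusted p under 0.05 in 1 and 12, beside 30.9%. Groups without overlap were found in 1 mitochondrial member, higher in OE with Dox, and in 11 nuclear members, 8 higher and 3 lower, beside 16.1% of all genes higher and 15.4% lower. The mitochondrial gene was MT-CYB, whose levels stand above (log2 fold 0.76, SE 0.14, limma adjusted p = 0.0004), a call kept whichever 1 library was left out. ATP5F1E had 676, 534 and 532 in OE with Dox, against 381.5, 349 and 348 in WT (log2 fold 0.68, SE 0.15, limma adjusted p = 0.0023), and was likewise called without any 1 library. In OE without Dox it had 424, 455 and 427, also above all WT libraries, with a log2 fold of 0.28 against WT that did not pass (limma adjusted p = 0.34). ATP5PF, a peripheral stalk subunit, had 295, 255 and 284 in OE with Dox, against 171, 232 and 204 in WT (log2 fold 0.46, SE 0.15, limma adjusted p = 0.036), with 37.3% of its exon bases shared with other genes. It kept its call in 2 of the 6 fits that left out 1 library (limma adjusted p of 0.022 to 0.16 over the 6) and lost it without WT replicates 1 or 3 or OE with Dox replicates 1 or 3. It also lost it with no filter, upper-quartile scaling, sample quality weights or the compared groups only. ATP5MC2 had 963, 923 and 947 in OE with Dox, against 1293, 1089 and 1372 in WT (log2 fold -0.40, SE 0.12, limma adjusted p = 0.027), and of the 6 fits that left out 1 library it kept its call in 1, without WT replicate 2 (limma adjusted p of 0.013 to 0.11 over the 6). Of the remaining mitochondrial members called against OE without Dox, MT-ATP8, MT-ATP6, MT-CO2 and MT-CO3 had log2 folds of 0.32, 0.29, 0.23 and 0.29 against WT, none of them called (limma adjusted p of 0.28, 0.32, 0.32 and 0.17). In this comparison 7 of 10 neuronal markers were called lower and 1 higher, 6 of 10 MGE markers lower and 2 higher, 5 of 8 mesenchyme markers higher and 0 lower, 6 of 8 cycling markers lower and 0 higher, and all 3 tested markers of pluripotent cells lower. Their part was not tested.

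**Figure D5:**
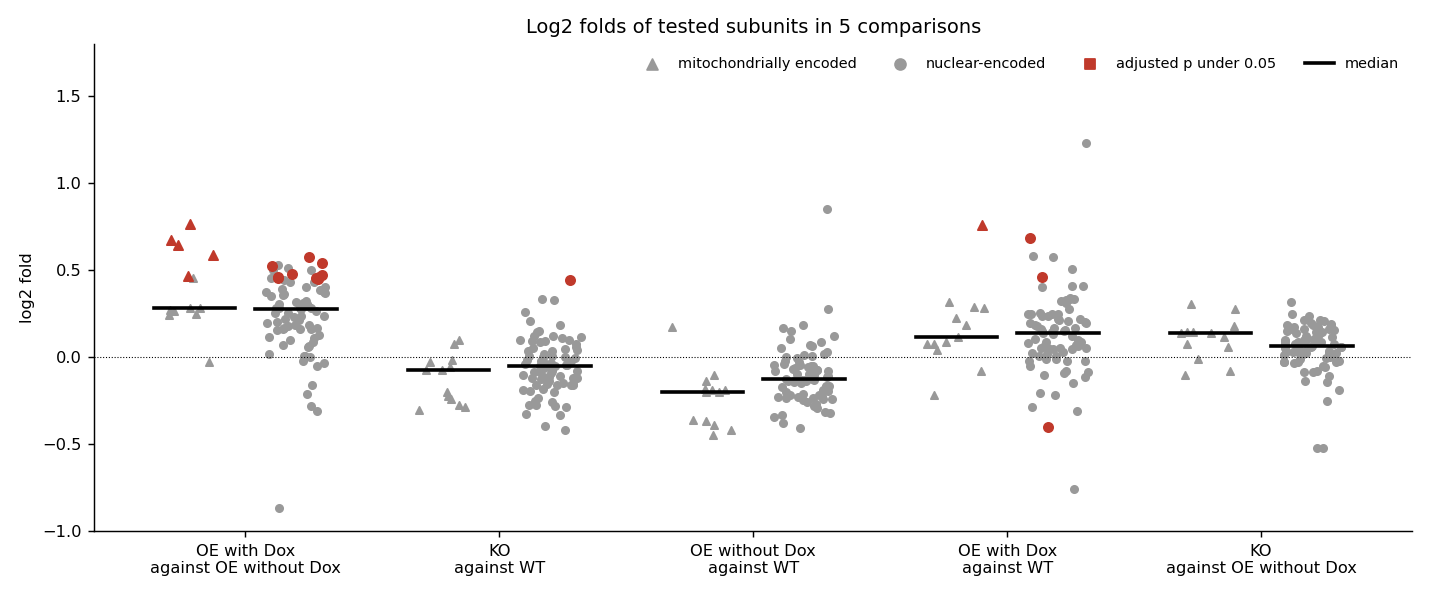
Log2 folds of the 13 mitochondrially encoded (triangles) and 79 tested nuclear-encoded (circles) members in the 5 comparisons, with black bars at the medians and red for an adjusted p under 0.05. Medians stand at 0.28 for both genomes in OE with Dox against OE without Dox and between -0.20 and 0.14 in the other comparisons; the circle at 1.23 is NDUFA4L2, which was not called.

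The nuclear genome also holds copies of mitochondrial genes, to which reads can align. MTATP6P1, a copy of MT-ATP6 on chromosome 1 (633696 to 634376), averaged 1177 ± 105 in OE with Dox, against 718 ± 79.8 in OE without Dox, with a log2 fold of 0.71 (limma adjusted p = 0.0087). This fold is close to the 0.68 of MT-ATP6 itself, and how reads were shared between them is not known from the table. The copies MTND2P28, MTND4P12 and MTCO1P12 had log2 folds of 0.20, 0.16 and 0.49 with Dox, none of them called (limma adjusted p of 0.55, 0.44 and 0.11).

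Genes that serve the respiratory chain were counted from lists in the same contrast of OE with Dox against OE without Dox. Among all tested genes, 12.8% were called higher and 12.9% lower there. Of 47 tested assembly factors, 7 were called higher and 1 lower, with a median log2 fold of 0.08. NDUFAF3, which assembles complex I, averaged 243 ± 7.12 in OE with Dox, against 149 ± 23.9 in OE without Dox (log2 fold 0.71, limma adjusted p = 0.0044). ATPAF1 and TMEM70, which help to assemble the ATP synthase, had log2 folds of 0.58 and 0.78, with limma adjusted p of 0.0044 and 0.0080. NDUFAF6, another complex I factor, was lower (log2 fold -0.67, limma adjusted p = 0.045). Of 76 mitochondrial ribosomal protein genes, 11 were called higher and 1 lower, with a median of 0.25; MRPL34 had 201 ± 24.1 in OE with Dox, against 107 ± 21.8 in OE without Dox (log2 fold 0.93, limma adjusted p = 0.00055).

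Regulators of mitochondrial transcription and DNA were counted in the same contrast, beside 12.8% of all genes called higher, 12.9% called lower and 35.7% at an unadjusted p under 0.05, and no test of a difference from those shares was made. Of 23 genes for mitochondrial transcription and RNA stability 1 was called higher and 1 lower (PNPT1, an RNA-degrading enzyme, 0.47, and MTERF4, -0.43, limma adjusted p of 0.025 and 0.024). Of 11 genes for mitochondrial DNA maintenance, 0 were called by limma, edgeR or DESeq2, with 1 at an unadjusted p under 0.05. The transcription factor of the organelle, TFAM, averaged 425 ± 55.0 in OE with Dox, against 441.5 ± 63.2 in OE without Dox (log2 fold -0.05, limma adjusted p = 0.86). Of 12 regulators of mitochondrial biogenesis 1 was called, ESRRG, a nuclear receptor, with 275 ± 60.9 in OE with Dox, against 101 ± 39.2 in OE without Dox (limma adjusted p = 0.043). PPARGC1A, the coactivator PGC-1alpha, had 32.1 ± 7.50 in OE with Dox, against 17.4 ± 6.45 in OE without Dox (log2 fold 0.89, limma adjusted p = 0.052).

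Among genes of the mitochondrial stress response, 6 of 23 were called higher and 1 lower with Dox, with a median log2 fold of 0.25, beside 12.8% of all genes called higher and 12.9% called lower. Against WT the direction of the median was the other one. In OE with Dox 2 of the 23 were called higher and 4 lower, with a median of -0.30. Among all genes 10.4% were called higher and 10.1% lower in that comparison. In OE without Dox 0 of the 23 were called higher and 4 lower, with a median of -0.49. The shares of all genes were 3.43% higher and 2.32% lower there. In the contrast with OE without Dox, SLC7A11, the cystine importer, averaged 208 ± 34.1 in OE with Dox, against 48.2 ± 11.3 in OE without Dox (limma adjusted p = 1.4e-05). PYCR1, a mitochondrial enzyme of proline synthesis, averaged 327 ± 8.60 against 169 ± 20.4 in those groups (log2 fold 0.96, limma adjusted p = 9.5e-05), and ASNS, asparagine synthetase, was lower (log2 fold -0.56, limma adjusted p = 0.014). The transcript of ATF4, the factor that drives many of these genes, had a log2 fold of -0.01 (limma adjusted p = 0.99). ATF4 protein and its activity were not measured. In KO against WT, 0 of the 23 were called higher and 6 lower, beside 6.64% and 7.15% of all genes, with a median of -0.53, among them PYCR1 (log2 fold -0.65, limma adjusted p = 0.0027), DDIT3 (log2 fold -1.18, adjusted p = 0.0044) and SLC7A11 (log2 fold -1.01, adjusted p = 0.0091). Of 13 mitochondrial chaperones and proteases 2 were called higher with Dox (HSPD1, 0.46, and HTRA2, 0.53), of 18 genes of the TCA cycle and pyruvate entry 4 higher and 1 lower (PDHA1, 0.66, PDHB, 0.61, and IDH2, -0.54), and of 20 glycolysis genes 2 higher and 1 lower (HK1, 0.71, PFKL, 0.60, and PFKM, -0.43). The share called higher was 26.1% in the stress response and 22.2% in the TCA cycle, beside 12.8% of all genes. It was near that share in the chaperones (15.4%), the assembly factors (14.9%), the ribosome (14.5%) and glycolysis (10.0%). It was lower in biogenesis regulators (8.33%), mitochondrial transcription and RNA stability (4.35%) and mitochondrial DNA maintenance (0%). No test of these differences was made.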

How the data were processed

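Per the labels' protocols, 500 ng of total RNA per library was prepared with an NEBNext Ultra RNA kit. HTSeq 0.9.1 and TopHat2 2.1.1, with DESeq2, R 3.4.0 and the build hg38, appear in the submitters' processing notes, and the annotation release and strand setting are not given in the sources used here. The values are a normalized signal deposited by the authors, gene counts divided by 1 size factor per library. In each library all values are whole multiples of 1 step (0.866 to 0.947 per read, 100% whole at a tolerance of 0.01), and the reads recovered this way were used for edgeR 4.0.16 and DESeq2 1.42.0. No value column belonged to samples outside the labels (0). Floors cover counting error only.

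Names and coordinates are those of GENCODE 44, which names 56948 identifiers. Calls rest on R 4.3.3 and limma 3.58.1 with an intensity trend and robust empirical Bayes, 14 libraries and 4 groups in 1 model, 10 residual degrees of freedom, a pseudocount of 1, a filter of 10 in 3 libraries, and folds on the log2(value + 1) scale, which understates changes of low genes. The code was tested on simulated data. Replicates of a group differed by more than counting error (chi-square per gene 3.83 to 13.9). Same-numbered libraries correlated in all 3 pairs for OE with Dox with OE without Dox (0.22, 0.248 and 0.402). They also did so for OE without Dox with WT (0.222, 0.175 and 0.283). Correlations were uneven for OE with Dox with WT (0.0559, 0.0369 and 0.25) and for KO with OE without Dox (0.221, 0.0494 and 0.102). For KO with WT they had mixed signs (0.237, -0.289 and 0.127). No cutoff was set for such pairing. Members, lists and rules were chosen with earlier results of these data known. Per-library values are given for the mitochondrial members and, per comparison, up to 4 called nuclear members in each direction, or the 2 of highest mean where none is called, with others by role. NDUFB5, NDUFB6, NDUFA1, SDHB, COX5A and COX5B are also named because they were called. Of list genes up to 3 called ones per direction are named, and TFAM, PPARGC1A and ATF4 were added after their values were seen. The NRF1 and YY1 cores were shortened to their present letters after a first search with longer forms, in which the same 3 called members held a match. Alternatives were other pseudocounts, filters, scalings, weights, the replicate block, fits of the compared groups only, edgeR, DESeq2 and leaving out libraries. Tables and figures used matplotlib 3.10.9, numpy 2.4.6, pandas 2.3.3 and Python 3.11.15.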

Additional observations from a re-analysis of the deposited data

Results flagged for a closer look

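Among the 5 KO libraries, single libraries stood apart from the other 4 in 5 members, judged by the gap to the nearest library relative to the whole range. Chance flags about 1 in 20 such groups, and 92 tested members were screened.

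Replicate 3 of KO was the highest for COX6C, with a normalized count of 393 against 315 in the next library. It was also the highest for ATP5F1C (782 against 614) and for MT-ATP8 (2231 against 1495), and the lowest for MT-ND1 (4465 against 5486). Replicate 5 of KO was the highest for NDUFA3 (245 against 185).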

How the results depend on the processing

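No called fold of a single member changed sign under the alternatives run. Values under an alternative were counted for all mitochondrial members and for nuclear members called in the main fit. Of these values, 1478 kept their side of the threshold, 91 lost it and 9 gained it. Most of the 1478 belong to mitochondrial members that were uncalled and stayed so. Gains by uncalled nuclear members are not in this count. Between OE with Dox and OE without Dox, the 10 nuclear members called higher became 3 with no filter, 4 with upper-quartile scaling (which moved the median of all genes to -0.05) and 1 without replicate 3 of either OE group, a setting added after seeing the data, where fewer libraries are compared. Over all genes, 2397 of 38651 tested, 1843 of 17348 and 1207 of 16766 were called higher in these settings, in that order. The replicate block gave 14 nuclear and 6 mitochondrial members, and called 2467 of all tested genes higher, against 2189 in the main fit. In KO against WT, the 1 nuclear member called higher became 0 with no filter and 0 with a fit of the compared groups only, and 0 called lower became 1 with the replicate block (NDUFA11). In OE without Dox against WT, 0 mitochondrial members called lower became 1 with sample quality weights (MT-CO2). In OE with Dox against WT, the 2 nuclear members called higher became 1 with no filter, upper-quartile scaling, sample quality weights or the compared groups only, 4 with the replicate block and 4 with DESeq2, and the 1 called lower became 0 with no filter or the compared groups only. In KO against OE without Dox, 0 nuclear members called lower became 1 with the replicate block. Correlations of same-numbered libraries reached 0.175 in every pair only in OE with Dox against OE without Dox and in OE without Dox against WT. The cause of these shifts was not tested.

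Leaving out 1 library at a time gave 1 to 9 nuclear and 3 to 6 mitochondrial members higher with Dox, a mitochondrial median log2 fold of 0.23 to 0.49 and a mitochondrial minus nuclear median of 0.043 to 0.265 (0.006 with all libraries). Over all tested genes these fits called 1479 to 1921 higher, against 2189 with all libraries. In KO against WT it gave 0 to 1 nuclear members higher and 0 to 2 mitochondrial members lower. In OE without Dox against WT it gave 0 to 1 mitochondrial members lower, a mitochondrial median of -0.384 to -0.093 and a difference of the medians of -0.307 to 0.075. In OE with Dox against WT it gave 1 to 5 nuclear members higher, 0 to 1 lower, a mitochondrial median of 0.046 to 0.324 and a difference of -0.071 to 0.228.

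With 3 libraries a group, the SEs of the mitochondrial log2 folds with Dox, 0.12 for MT-CO1 to 0.40 for MT-ND6, limit which differences could pass. The 10 untested members reached at most 9.07, and NDUFC2-KCTD14, ATP5MF-PTCD1, COX6A2, NDUFA7 and COX6B2 among them share 99.6, 93.4, 38.3, 32.5 and 29.1% of their exon bases with other genes, so that low depth and reads left unassigned cannot be told apart there.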
